A study of Rattus norvegicus with 12 samples.

Results

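The glucocorticoid target genes described here are 10 genes, Fkbp5, Zbtb16, Sgk1, Tsc22d3, Pdk4, Errfi1, Arrdc2, Sult1a1, Cdkn1a and Nr3c1, followed in the rat striatum after breathing carbon monoxide (CO) or a low-oxygen gas. They were found by gene symbol on a whole genome array, which carried 18 probes for them among 40998 probes measured, and all 18 entered the test among 32230 probes. The first 9 genes are known to be induced by glucocorticoids in at least some tissues, and Nr3c1 encodes the glucocorticoid receptor itself. Per the labels, every rat was a male Sprague-Dawley rat that breathed a gas for 40 minutes, was anaesthetized with pentobarbital at the stated time afterwards and was perfused with chilled saline before both striata were taken. Each array held the RNA of 1 rat, and the 12 arrays covered 1000 ppm CO and 3000 ppm CO with samples 0, 2, 6 and 12 h later, 5% oxygen (O2) with samples 0, 2 and 6 h later, and air with a sample at 0 h. Where 3 values follow each other for the exposures, they stand in the order 1000 ppm CO, 3000 ppm CO, 5% O2. Air was sampled only at 0 h, so no later time has a control of its own, and all rats, the air rat included, received the anaesthetic.

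Glucocorticoids are steroid hormones, mainly corticosterone in the rat, that the adrenal cortex releases under stress and with the daily rhythm. They enter cells and bind the glucocorticoid receptor, which is held in the cytoplasm by a heat shock chaperone and its cochaperones. The bound receptor moves to the nucleus and binds DNA as a dimer at paired copies of a short sequence, which raises transcription of a set of target genes. Several targets feed back on the hormone signal: Fkbp5 lowers the receptor's affinity for hormone, and the receptor can lower its own mRNA.

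The probes were 60 bases long, and the level of each is given as log2 of its signal with the 75th percentile of its array set to 0. A level says how bright a probe was, so levels are compared between arrays for 1 probe and never between probes. The following probes, on the rat build rn4, carry the time patterns described next, and each is printed 5′ to 3′ in the sense of the transcript. The 2 Zbtb16 probes lie 156.758 kb apart on chromosome 8, so they read well separated parts of the same gene.

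Zbtb16 A_44_P366142, chr8:51934505-51934564, minus strand: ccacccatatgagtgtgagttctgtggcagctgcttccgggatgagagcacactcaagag
Zbtb16 A_44_P189428, chr8:52091263-52091322, minus strand: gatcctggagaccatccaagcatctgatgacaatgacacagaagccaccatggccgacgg
Fkbp5 A_43_P18969, chr20:6647361-6647420, minus strand: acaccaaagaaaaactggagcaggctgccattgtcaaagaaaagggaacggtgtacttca
Sult1a1 A_44_P372501, chr1:185829753-185829812, minus strand: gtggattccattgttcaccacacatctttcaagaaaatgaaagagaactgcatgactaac
Arrdc2 A_44_P496848, chr16:19109263-19109322, plus strand: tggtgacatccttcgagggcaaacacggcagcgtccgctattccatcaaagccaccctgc

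Of the 18 probes, 16 were well above background on all 12 arrays. Zbtb16 A_44_P189428 was well above background on 8 arrays and Pdk4 A_44_P231269 on 10. Between 72.9% and 78.7% of the spots of an array were well above background and 0 were saturated. Times of 0, 2 and 6 h within an exposure always shared a slide, whereas 3000 ppm CO at 12 h lay on the slide of 5% O2, air lay with the earlier 3000 ppm CO arrays, and 1000 ppm CO had a slide to itself. Position on the slide rose with time: 0, 2 and 6 h lay at positions 1, 2 and 3 in 1000 ppm CO. They lay at positions 2, 3 and 4 in 3000 ppm CO and in 5% O2. Among these arrays, a step in time and a step in position cannot be told apart. A pair of libraries stood apart by tissue markers: in 5% O2 at 0 h all 12 medium spiny neuron markers, the defining genes of the striatum, were at least 2-fold below air with a median of −3.23, and in 1000 ppm CO at 6 h all 12 were below air with a median of −0.84. On the other 9 exposed arrays that median lay between 0.08 and 1.11. Septal and thalamic markers were highest against air on these same arrays, at 1.09 and 0.70, and their medians elsewhere lay between −2.72 and 0.29. Medians of hypothalamic peptide genes lay between −2.27 and 1.70, of choroid plexus markers between −6.42 and −0.47, and of blood cell genes between 0.10 and 2.54. The choroid plexus medians were thus below air on every exposed array. Leaving out the marker-poor pair does not remove these differences in tissue markers. Medians of astrocyte, oligodendrocyte, endothelial and pericyte, and microglial markers all lay between −0.45 and 0.65. In a whole tissue, fewer cells of a type and less RNA per cell cannot be told apart.

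Against air, the target genes stood highest at 2 h after 5% O2. There, 9 of the 18 probes, from 6 genes, were at least 2-fold above air, where 3.62% of all probes above background on either array were. At 2 h after 3000 ppm CO, 5 probes from Fkbp5 and Zbtb16 were at least 2-fold above air, where 3.46% of all probes were. At 2 h after 1000 ppm CO, 3 probes of these same genes were, where 5.44% were. On the other 8 arrays the counts were 0 to 2. In 1000 ppm CO they were 1 at 0 h (4.26% of all probes), 0 at 6 h (3.54%) and 2 at 12 h (3.7%). In 3000 ppm CO they were 1 (2.56%), 0 (5.11%) and 1 (4.01%) at these times, and in 5% O2 they were 2 at 0 h (5.71%) and 0 at 6 h (2.4%).

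Probes at least 2-fold below air were few on every array. There were 2 at 0 h (7.96% of all probes), 2 at 2 h (7.87%), 2 at 6 h (7.92%) and 1 at 12 h (6.45%) in 1000 ppm CO. In 3000 ppm CO there were 1 (2.67%), 0 (4.13%), 2 (3.77%) and 1 (6.83%) at these times. In 5% O2 there were 2 at 0 h (5.43%), both of Fkbp5, 0 at 2 h (2.37%) and 2 at 6 h (3.36%). Cdkn1a A_44_P515275 made up 8 of these 15 calls.

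The median over the 18 probes was 0.99 above air at 2 h after 5% O2 and 0.60 at 2 h after 3000 ppm CO, against 0.01 and 0.06 over all tested probes. It was lowest in 1000 ppm CO at 6 h, at −0.17. All of these differences share the single air array, have no replicate on either side, and carry no test.

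**Figure D1:**
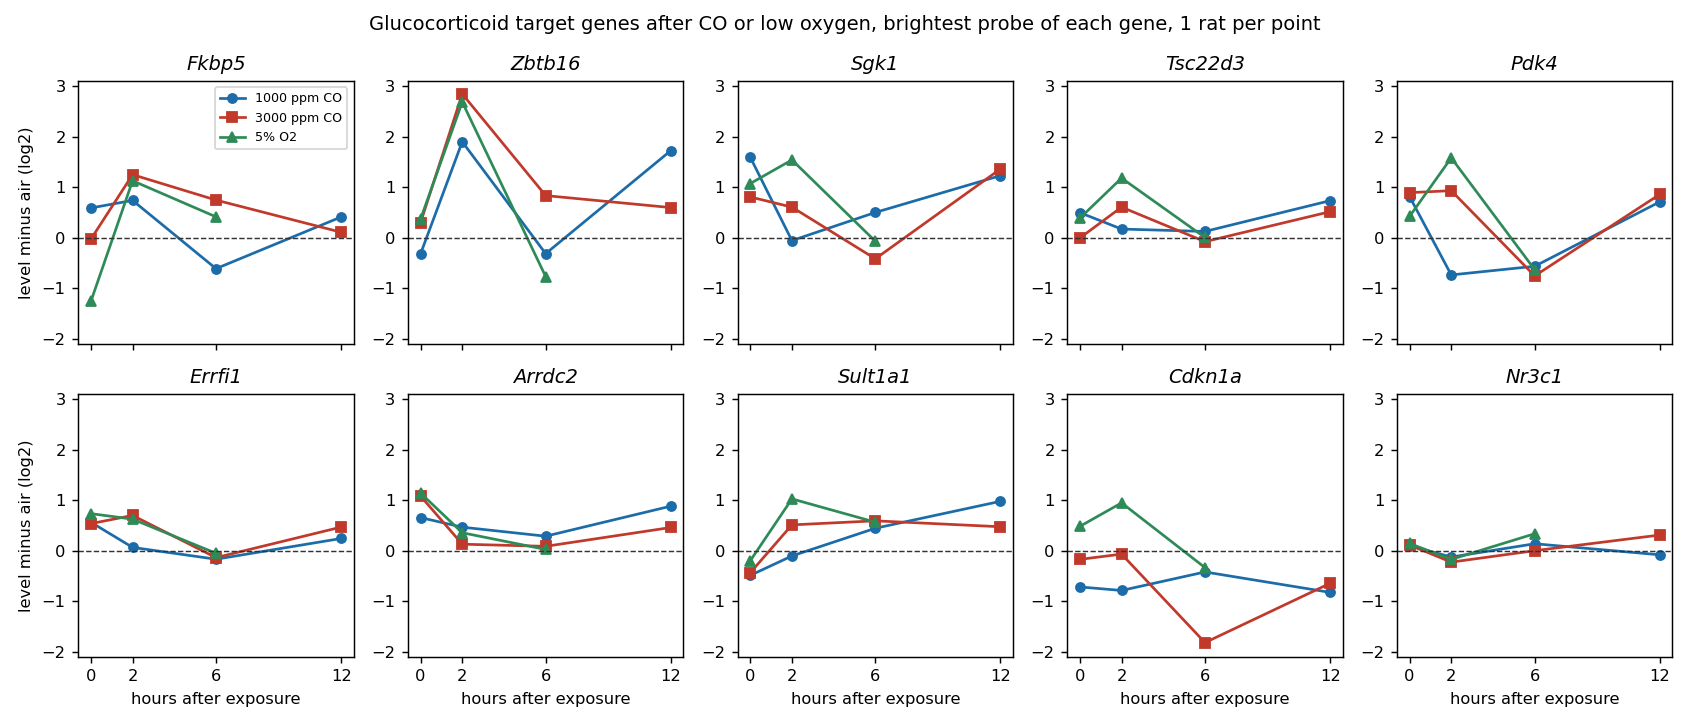
Level minus air (log2, vertical axis) against hours after exposure (horizontal axis) for the brightest probe of each of the 10 genes, with 1 rat per point and lines joining the times of 1 exposure. Zbtb16 peaks at 2 h in all 3 exposures (1.90, 2.84 and 2.68), Sgk1 and Pdk4 are lower at 6 h than at 0 h in each exposure, and Nr3c1 stays between −0.23 and 0.34.

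Between times, each exposure gives its own difference, and the 3 differences share no array. A limma model with exposure and time as additive factors combined them, with p-values adjusted by the Benjamini-Hochberg method over all tested probes. With a threshold of 0.05, 0 of the 18 probes passed for 2 h against 0 h, where 0.0155% of all probes did, and 0 passed for 6 h against 0 h (0.0186% of all probes), 12 h against 0 h (0.0124%) and 6 h against 2 h (0%). At an unadjusted limma p under 0.05, 7 of 18 probes were counted for 2 h against 0 h (3.67% of all probes), 5 for 6 h against 0 h (2.72%), 1 for 12 h against 0 h (5.58%) and 6 for 6 h against 2 h (2.63%). None of these genes is therefore called changed, and the differences below are given with their standard errors (SE).

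**Figure D2:**
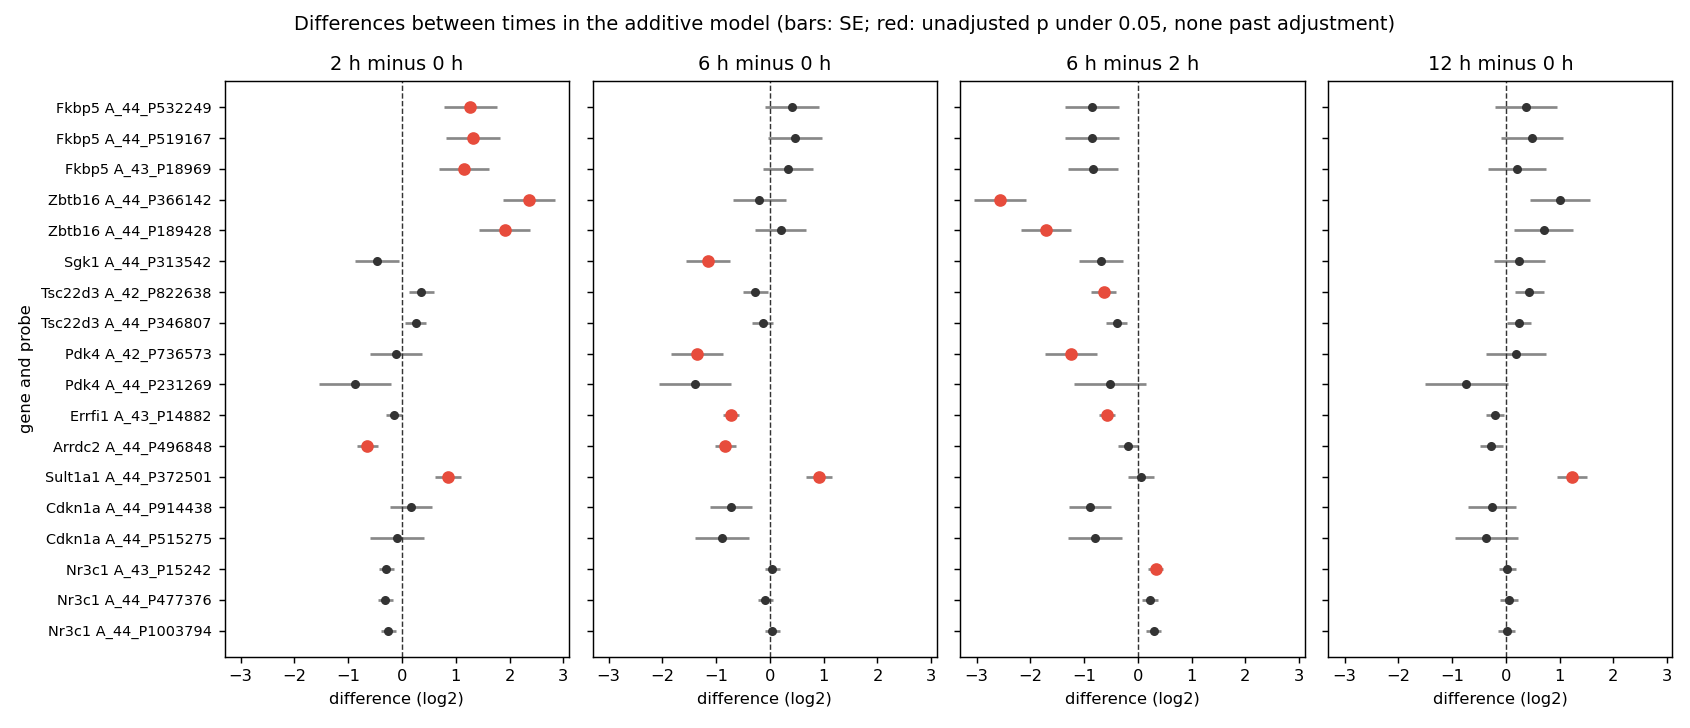
Differences between times in the additive limma model (log2, horizontal axes) for all 18 probes (vertical axis), with bars of 1 SE on either side; red points have an unadjusted p under 0.05. The 2 Zbtb16 probes lie at 2.36 and 1.91 for 2 h against 0 h, and none of the 18 probes passed the adjusted threshold in any panel.

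Zbtb16, a zinc finger transcription factor also called PLZF, had the clearest course. The brighter probe A_44_P366142 read −4.74 in air, then −5.06, −2.84, −5.06 and −3.02 at 0, 2, 6 and 12 h after 1000 ppm CO. It read −4.45, −1.90, −3.91 and −4.15 at the same times in 3000 ppm CO, and −4.37, −2.06 and −5.51 at 0, 2 and 6 h in 5% O2. The 3 arrays at 2 h were the 3 highest of the 12, and 1000 ppm CO at 12 h came next. The second probe, A_44_P189428, read −6.57, −4.89 and −7.05 at 0, 2 and 6 h in 1000 ppm CO, −5.46, −3.44 and −4.62 in 3000 ppm CO, and −5.81, −3.79 and −5.56 in 5% O2. It also peaked at 2 h in each exposure, and the probes correlated at r = 0.85 over the 12 arrays.

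From 0 to 2 h the brighter Zbtb16 probe was higher by 2.22, 2.55 and 2.32 in the 3 exposures. The model put this at 2.36 ± 0.49 (log2 ± SE), a 5.14-fold difference, with an adjusted p = 0.928 in limma. The second probe gave 1.91 ± 0.47 (limma adjusted p = 0.971), and because its 0 h spots were not well above background in either CO exposure, its differences there are bounds of at least 1.49-fold and at least 4.07-fold higher. From 2 to 6 h the brighter probe differed by −2.21, −2.01 and −3.45 (model −2.56 ± 0.49, limma adjusted p = 0.996). By measured levels, spots not well above background included, both Zbtb16 probes were at least 2-fold higher at 2 h than at 0 h in all 3 exposures, as were 0.0993% of all tested probes, but the bound for the second probe in 1000 ppm CO is below 2-fold. Both were at least 2-fold lower at 6 h than at 2 h in all 3, as were 0.0496%. None of the 18 probes was 2-fold lower at 2 h than at 0 h in all 3 exposures (0.121% of all probes) or 2-fold higher at 6 h than at 2 h (0.0186%).

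The size of the Zbtb16 difference depended on how background was treated. With normexp background correction, which adds an offset to all signals, the brighter probe gave 1.21 for 2 h against 0 h and −0.70 for 6 h against 2 h. The dim probe gave 0.65 and 0.07. When both marker-poor arrays were left out, the brighter probe gave 2.64 for 2 h against 0 h.

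At 12 h the exposures differed in value. After 1000 ppm CO the brighter Zbtb16 probe was 2.05 above its 0 h level, and after 3000 ppm CO it was 0.30 above. The dim probe was at least 1.32-fold higher at 12 h than at 0 h after 1000 ppm CO and was not well above background at either time after 3000 ppm CO. The model difference over both exposures was 1.01 ± 0.56 (limma adjusted p = 0.849), and the difference between exposures was not tested.

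Fkbp5, a cochaperone that restrains the receptor, was measured by 3 probes that moved together, with r from 0.986 to 0.988. The probe A_44_P532249 (chr20:6637600-6637659) read 2.21 in air, 2.80, 2.95, 1.60 and 2.62 at 0, 2, 6 and 12 h in 1000 ppm CO, and 2.18, 3.46, 2.96 and 2.32 at the same times in 3000 ppm CO. After 5% O2 it read 0.95, 3.34 and 2.62 at 0, 2 and 6 h. The 2 highest arrays were 3000 ppm CO and 5% O2 at 2 h, and the 2 lowest were 5% O2 at 0 h and 1000 ppm CO at 6 h, which are the arrays with low medium spiny neuron markers.

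At 2 h the 3 Fkbp5 probes were above their 0 h level in every exposure, by 0.15 to 0.23 after 1000 ppm CO, 1.23 to 1.35 after 3000 ppm CO and 2.04 to 2.39 after 5% O2. The model gave 1.27 ± 0.50, 1.32 ± 0.50 and 1.16 ± 0.46, each with a limma adjusted p of 0.971. Leaving out 5% O2 at 0 h alone, these became 0.68, 0.73 and 0.68, and with both marker-poor arrays left out they were 0.79, 0.84 and 0.80. The part of the tissue markers in the Fkbp5 values was not tested. The marker median against air was 1.11 at 0 h and 0.97 at 2 h in 1000 ppm CO, 0.18 and 0.62 in 3000 ppm CO, and −3.23 and 0.08 in 5% O2, where Fkbp5 A_44_P532249 was higher at 2 h by 0.15, 1.28 and 2.39 in the same order. From 2 to 6 h all 3 probes were lower in each exposure, with differences from −1.42 to −0.38.

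**Figure D3:**
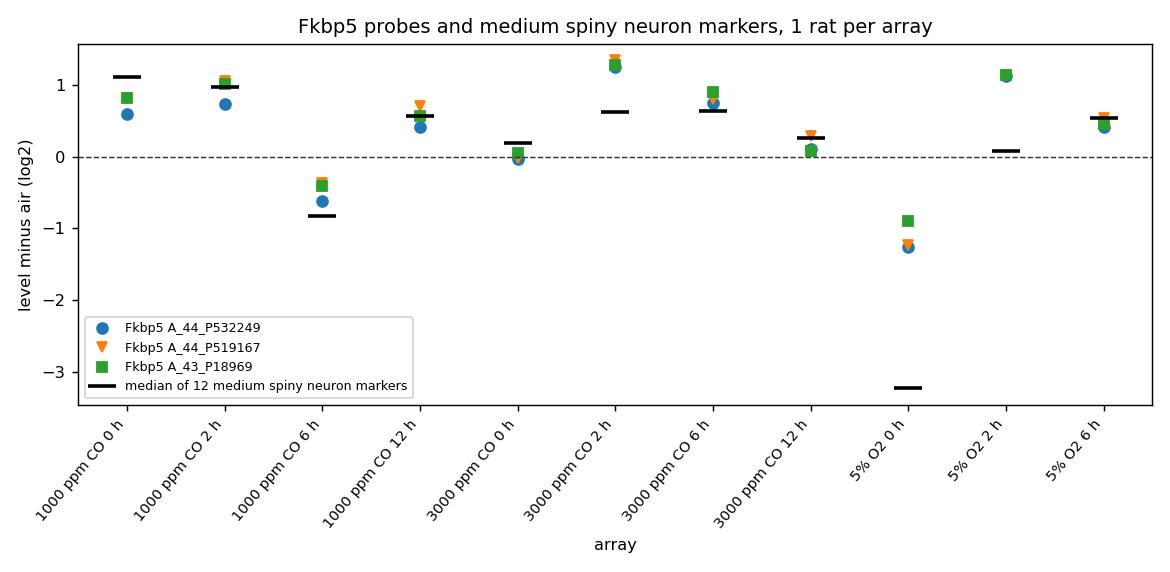
Level minus air (log2, vertical axis) of the 3 Fkbp5 probes (symbols) and the median of 12 medium spiny neuron markers (black bars) on each of the 11 exposed arrays (horizontal axis), 1 rat per array. The arrays with the lowest marker medians, 5% O2 at 0 h (−3.23) and 1000 ppm CO at 6 h (−0.84), are those where all 3 Fkbp5 probes lie below air.

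Tsc22d3, also known as GILZ, encodes a leucine zipper protein that mediates part of the anti-inflammatory action of glucocorticoids. Its probe A_42_P822638 (chrX:128336564-128336623) read 2.35 in air, 2.85, 2.52, 2.48 and 3.09 at 0, 2, 6 and 12 h in 1000 ppm CO, and 2.35, 2.96, 2.28 and 2.87 at the same times in 3000 ppm CO. After 5% O2 it read 2.74, 3.53 and 2.36 at 0, 2 and 6 h, and the 2 h array was the highest of all. From 2 to 6 h it differed by −0.05, −0.68 and −1.18 in the 3 exposures. The model gave −0.64 ± 0.23 (limma adjusted p = 0.996), and without 5% O2 at 2 h the value was −0.39. The second probe, A_44_P346807, spanned only 0.78 over the 12 arrays, differed from 2 to 6 h by −0.10, −0.36 and −0.71, and correlated with the first at r = 0.76.

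Sgk1, a kinase that regulates ion channels and transporters, and Pdk4, a mitochondrial kinase that restrains pyruvate dehydrogenase and so the use of glucose, were high at 0 h and low at 6 h. Sgk1 (A_44_P313542, chr1:23501718-23501777) read 1.20 in air and 2.79, 1.14, 1.70 and 2.43 at 0, 2, 6 and 12 h after 1000 ppm CO. It read 2.00, 1.80, 0.78 and 2.56 at these times after 3000 ppm CO, and 2.27, 2.74 and 1.13 at 0, 2 and 6 h after 5% O2. All 3 arrays at 0 h after an exposure were above air, all 3 at 6 h were below each array at 0 h after an exposure, and both at 12 h were again more than 2-fold above air. The 2 h arrays were split, with differences from 0 h of −1.65 after 1000 ppm CO, −0.20 after 3000 ppm CO and 0.47 after 5% O2.

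Pdk4 A_42_P736573 (chr4:30233848-30233907) read −1.12 in air, −0.31, −1.86, −1.69 and −0.42 at 0, 2, 6 and 12 h in 1000 ppm CO, and −0.23, −0.19, −1.88 and −0.27 at the same times in 3000 ppm CO. After 5% O2 it read −0.70, 0.45 and −1.76 at 0, 2 and 6 h. Every array at 6 h lay below every array at 0 h and 12 h, air included, and the 2 h arrays were low after 1000 ppm CO and highest after 5% O2. The dim probe A_44_P231269 was also lower at 6 h than at 0 h in each exposure, and at 2 h after 1000 ppm CO it was at least 3.70-fold below its 0 h level.

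From 0 to 6 h Sgk1 differed by −1.09, −1.22 and −1.14 in the 3 exposures, and Pdk4 A_42_P736573 by −1.38, −1.65 and −1.05. The model gave −1.15 ± 0.41 for Sgk1 and −1.36 ± 0.48 for Pdk4, with limma adjusted p = 1.00 for both. Sgk1 and both Pdk4 probes were at least 2-fold lower at 6 h than at 0 h in all 3 exposures, as were 0.09% of all tested probes, and none of the 18 was 2-fold higher (0.0217%). With normexp background correction, 1 of these 3 probes met that count. Without the 2 marker-poor arrays, the model values were −1.91 for Sgk1 and −2.26 for Pdk4.

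Over the 12 arrays Pdk4 was the gene most like Sgk1 among 12021 other genes with a symbol that were well above background throughout, with Pearson r = 0.86 and Spearman rho = 0.78. Tsc22d3 was the fourth, with r = 0.78 and rho = 0.73, and Errfi1 the sixth, with r = 0.76. Without the 2 arrays farthest from the median of Sgk1 (3000 ppm CO at 6 h and 1000 ppm CO at 0 h), r with Pdk4 was 0.84 and with Tsc22d3 0.78. The other genes among the 5 most like Sgk1 were Plekhf1 (0.85), Bcl2l1 (0.83) and Dbndd2 (0.77). Among the 5 most like Zbtb16 were Kcnk6 (0.88), Lims2 (0.88), Ezh2 (0.85) and Angptl4 (0.84). For Fkbp5 they were Saxo4, Pak6, Rps19-ps18, Ets2 and Sipa1l1, with r from 0.92 to 0.93. These correlations describe arrays that share exposures, slides and dissections, and they carry no test.

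**Figure D4:**
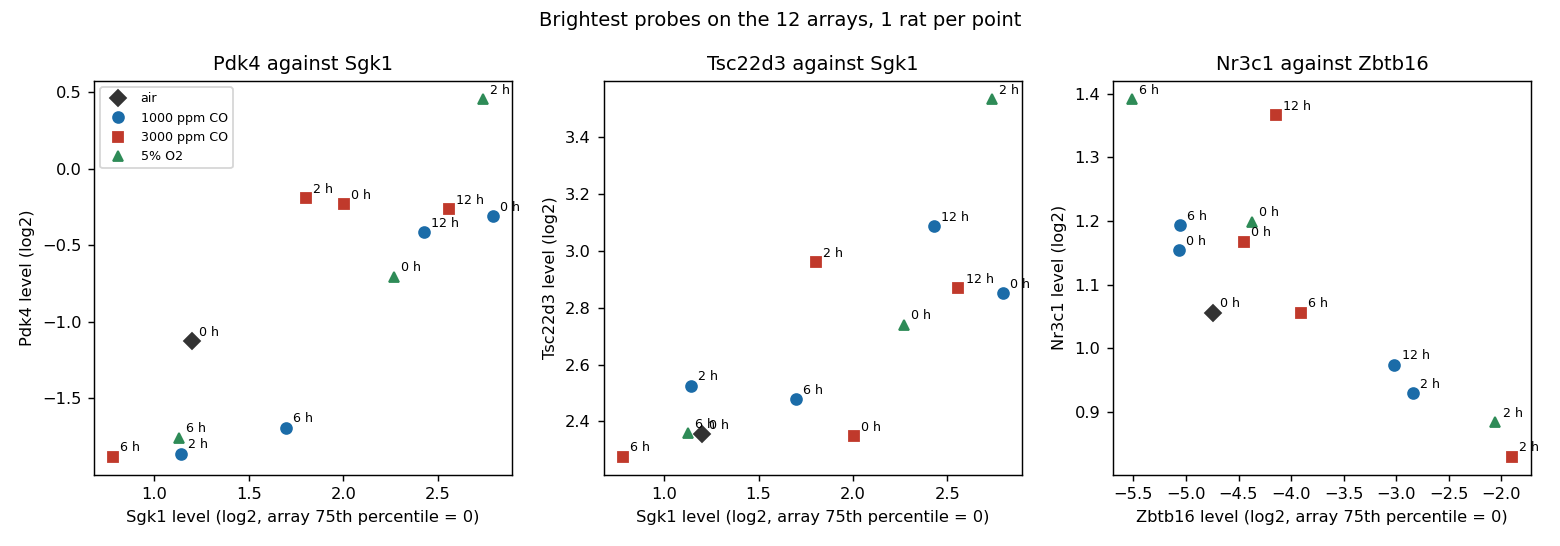
Levels of Pdk4 and Tsc22d3 against Sgk1, and of Nr3c1 against Zbtb16 (log2, array 75th percentile set to 0), brightest probes, with 1 point per array labelled by hours after exposure. Pdk4 and Tsc22d3 lie higher where Sgk1 is higher (r = 0.86 and 0.78 over 12 arrays), and Nr3c1 lies lower where Zbtb16 is higher (r = −0.84).

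Errfi1, a feedback inhibitor of the epidermal growth factor receptor, varied less but evenly (A_43_P14882, chr5:168025720-168025779). It read 2.31 in air and 2.87, 2.84 and 3.04 at 0 h in the 3 exposures. At 2 h it read 2.37, 3.01 and 2.93, at 6 h 2.14, 2.17 and 2.26, and at 12 h after the CO exposures 2.55 and 2.78. The 3 arrays at 6 h were the lowest of the 12, all below air, and from 0 to 6 h Errfi1 differed by −0.73, −0.67 and −0.79. The model gave −0.73 ± 0.15 for 6 h against 0 h (limma adjusted p = 1.00) and −0.58 ± 0.15 for 6 h against 2 h (adjusted p = 0.996).

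Arrdc2, an arrestin domain protein, was the only one of the 10 genes whose probes all lay above air on all 11 exposed arrays, by 0.02 to 1.14. It read −3.81 in air and −3.16, −2.73 and −2.67 at 0 h in the 3 exposures. At 2 h it read −3.35, −3.68 and −3.46, at 6 h −3.52, −3.72 and −3.79, and at 12 h after the CO exposures −2.93 and −3.35. From 0 to 2 h it differed by −0.19, −0.95 and −0.79, lower in each exposure. The model gave −0.64 ± 0.19 for 2 h against 0 h (limma adjusted p = 0.971) and −0.83 ± 0.19 for 6 h against 0 h (adjusted p = 1.00). The probe is dim, and with normexp correction these values were −0.24 and 0.08.

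Sult1a1, a sulfotransferase of phenols and other small molecules, differed in timing from the other targets. It read −0.36 in air and −0.85, −0.80 and −0.56 at 0 h in the 3 exposures, so all 3 were below air. At 2 h it read −0.46, 0.15 and 0.67, at 6 h 0.09, 0.23 and 0.21, and at 12 h after the CO exposures 0.62 and 0.12. Every array at 6 h and 12 h was above air and above every array at 0 h. The model gave 0.85 ± 0.24 for 2 h (limma adjusted p = 0.971), 0.91 ± 0.24 for 6 h (adjusted p = 1.00) and 1.23 ± 0.28 for 12 h (adjusted p = 0.849), each against 0 h. With the array's position on its slide in the model, the 6 h value was 0.52. Position rose in step with time from 0 to 6 h in every exposure. The position term therefore rests on the CO arrays at 12 h, at positions 4 and 1, and the 6 h value depends on them.

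Cdkn1a encodes p21, an inhibitor of cyclin-dependent kinases that is also a p53 target. Its probe A_44_P914438 (chr20:7386596-7386655) is spotted 10 times on each array, and these spots had an SD of 0.03 to 0.08. It read 1.95 in air, 1.24, 1.17, 1.53 and 1.13 at 0, 2, 6 and 12 h in 1000 ppm CO, and 1.78, 1.89, 0.13 and 1.31 at the same times in 3000 ppm CO. After 5% O2 it read 2.43, 2.90 and 1.62 at 0, 2 and 6 h. All 8 CO arrays lay below air, and 2 of the 3 arrays after 5% O2 lay above it, as they did for the second probe A_44_P515275, with r = 0.92 between the probes.

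The model difference of Cdkn1a between 1000 ppm CO and 5% O2 was −1.03 ± 0.38 for A_44_P914438 (limma adjusted p = 0.348) and −1.23 ± 0.49 for A_44_P515275 (adjusted p = 0.381). Without 1000 ppm CO at 6 h both passed, at −1.51 with adjusted p = 0.0287 and −1.79 with adjusted p = 0.0436. With both marker-poor arrays left out neither passed, at −1.74 (limma adjusted p = 0.101) and −2.02 (limma adjusted p = 0.130). Without 1000 ppm CO at 2 h the dimmer probe A_44_P515275 gave −0.66, and with normexp correction it gave −0.01. Between 3000 ppm CO and 5% O2 the brighter probe gave −1.02 ± 0.38 (limma adjusted p = 0.307), and −0.65 without 3000 ppm CO at 6 h. Tissue markers also differed in the comparisons of 1000 and of 3000 ppm CO with 5% O2. Their median model differences were −2.85 and −4.17 for choroid plexus, −1.58 and −1.43 for septal and thalamic, and 1.45 and 1.33 for medium spiny neuron markers. The part of the tissue markers in the Cdkn1a values was not tested.

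Over the exposures as a whole, 0 of 18 probes passed in any of the 6 limma comparisons of exposures. The shares of all probes that passed were 0.109% for 1000 ppm CO against air, 0.00621% for 3000 ppm CO against air, 0% for 5% O2 against air, 4.46% for 3000 against 1000 ppm CO, 0% for 3000 ppm CO against 5% O2 and 0.369% for 1000 ppm CO against 5% O2. For 3000 against 1000 ppm CO these were 1436 of 32230 probes, and the count was 0 with slide as a random block, 1 with scan session as a factor and 18 with normexp. At an unadjusted limma p under 0.05 the counts were 1 (11.7% of all probes), 2 (4.37%), 2 (7.31%), 1 (19.1%), 1 (14.6%) and 2 (12.3%) in the same order, so the share of the 18 probes was below that of all probes for 1000 ppm CO against air, for 3000 ppm CO against 1000 ppm CO, for 3000 ppm CO against 5% O2 and for 1000 ppm CO against 5% O2. Arrdc2 was above air by 1.01 ± 0.28 in 1000 ppm CO, 0.87 ± 0.28 in 3000 ppm CO and 1.00 ± 0.29 in 5% O2, with limma adjusted p from 0.246 to 0.855, and with normexp the last 2 values were 0.45 and 0.46. Errfi1 was above air by 0.66 ± 0.23 in 3000 ppm CO (limma adjusted p = 0.909) and 0.73 ± 0.23 in 5% O2 (adjusted p = 0.616). The dim Zbtb16 probe was 1.11 ± 0.41 higher in 3000 than in 1000 ppm CO (limma adjusted p = 0.196). That value was −0.53 with scan session as a factor, −0.52 with normexp, and 1.66 with adjusted p = 0.0193 without either 12 h array of CO. Each exposure lies mostly on 1 slide, so in these comparisons slide and exposure cannot be told apart beyond the alternatives given.

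Nr3c1, the receptor, was measured by 3 probes on chromosome 18, of which A_43_P15242 and A_44_P1003794 overlap by 20 bases. A_43_P15242, also spotted 10 times with a median SD of 0.03, read 1.06 in air, 1.15, 0.93, 1.19 and 0.97 at 0, 2, 6 and 12 h in 1000 ppm CO, and 1.17, 0.83, 1.06 and 1.37 at the same times in 3000 ppm CO. After 5% O2 it read 1.20, 0.88 and 1.39 at 0, 2 and 6 h. Its whole range was 0.56, the narrowest of the 18 probes, and the 3 arrays at 2 h were the 3 lowest. All 3 Nr3c1 probes were lower at 2 h than at 0 h in every exposure, with differences from −0.43 to −0.17, and higher at 6 h than at 2 h, by 0.13 to 0.51.

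For Nr3c1 the model gave −0.29 ± 0.14 for 2 h against 0 h (limma adjusted p = 0.971) and 0.33 ± 0.14 for 6 h against 2 h (adjusted p = 0.996) at A_43_P15242. Its probes correlated at r from 0.30 to 0.87. Over the 12 arrays Nr3c1 had the lowest correlation with Zbtb16 of all 12021 genes ranked, r = −0.84 and rho = −0.76, and −0.71 without 3000 ppm CO and 5% O2 at 2 h. That pair was singled out after its values were seen.

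**Figure D5:**
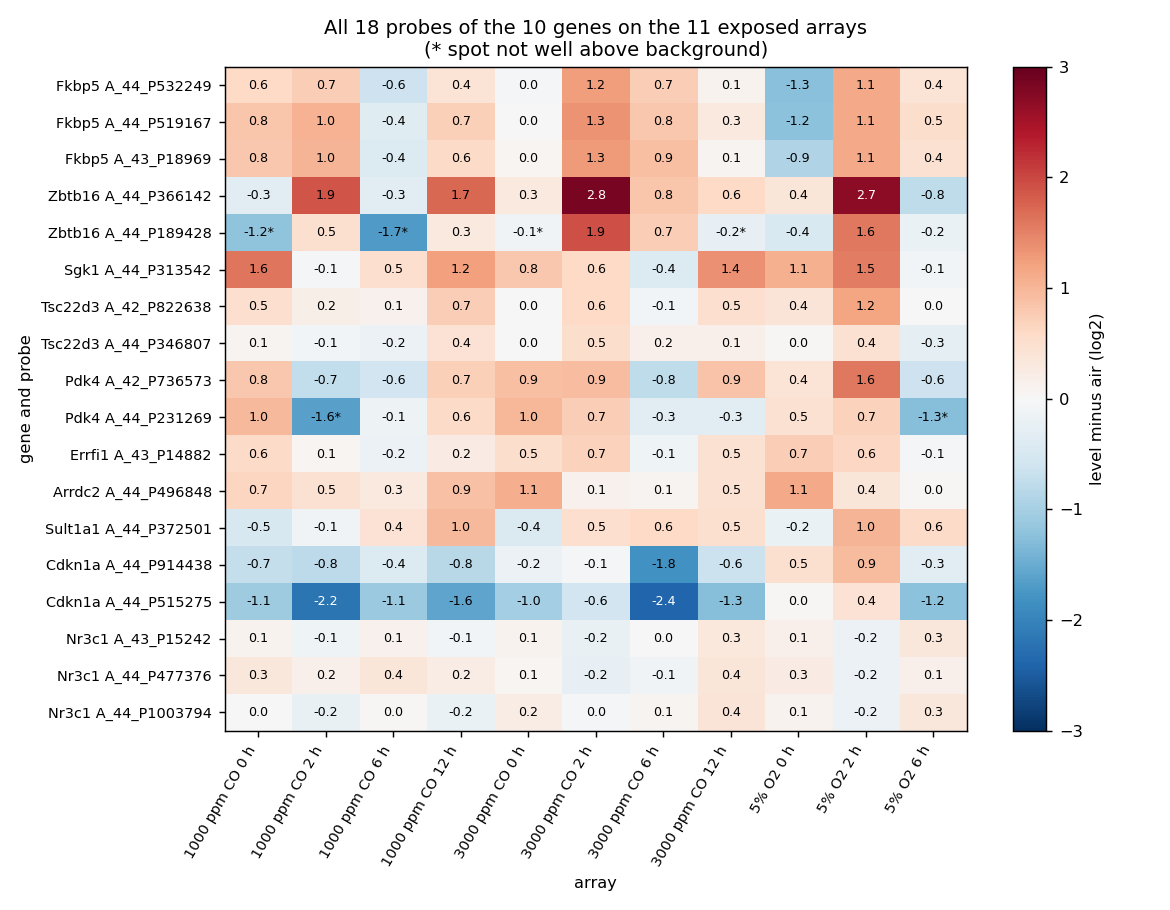
Level minus air (log2, colour and printed value) of all 18 probes (rows) on the 11 exposed arrays (columns), 1 rat per array; an asterisk marks a spot not well above background. The column of 5% O2 at 2 h holds 9 probes at 1.0 or more above air, and Cdkn1a A_44_P515275 is at least 2-fold below air on 8 arrays.

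Counted by the same direction in every exposure, 6 probes were higher at 2 h than at 0 h (Fkbp5, Zbtb16 and Sult1a1), where 20.3% of all tested probes were, and 4 were lower (Arrdc2 and Nr3c1), where 16.8% were. From 2 to 6 h 9 probes of Fkbp5, Zbtb16, Tsc22d3, Errfi1 and Arrdc2 were lower in all 3 exposures (12.1% of all probes), and the 3 Nr3c1 probes were higher (8.56%). From 0 to 6 h 7 probes of 6 genes were lower (9.14%) and Sult1a1 alone was higher (7.45%). From 0 to 12 h, in the 2 CO exposures, 4 were higher (24.6%) and 5 lower (30.1%), and none was 2-fold in both (0.453% and 0.465% of all probes).

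The promoters of these genes were read from RefSeq on the build GRCr8, from 250 bases before to 50 bases after each start, for 14 promoters of 9 of the genes. Zbtb16 had no promoter in the set, so it was not searched. Sites outside this window were not searched for any gene. The search was for AGAACA on either strand, the core of the receptor's binding sequence, and for the whole palindrome, AGAACA followed after 3 bases of any kind by TGTTCT, which contains it. Of 33469 promoters in the table, 20.7% held the shorter motif and 5 held the whole one. Among the 14 promoters 1 held the shorter motif and 0 the whole one. The promoter with the match belongs to Sult1a1, 89 bases before the start, and is shown with the motif in capitals.

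Sult1a1 promoter, chr1:190706169-190706228, minus strand: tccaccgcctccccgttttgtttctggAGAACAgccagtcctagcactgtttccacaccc

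The receptor's own machinery was followed with 28 genes on the array, among them the chaperones Hsp90aa1 and Fkbp4, coactivators and corepressors, and the enzyme Hsd11b1, which regenerates active corticosterone. In all 10 limma contrasts 0 of the 28 passed, 0 was 2-fold in the same direction between times in every exposure, and at an unadjusted p under 0.05 between 0 and 2 were counted. The list's median difference lay between −0.07 and 0.08 over these contrasts. Nr3c2, the mineralocorticoid receptor, lay between −0.37 and 0.14 against air, and Hsd11b1 between −0.61 and 0.53. Hsd11b2, also on this list, lay between −1.59 and 1.62. On each exposed array 0 or 1 of the 28 genes was at least 2-fold above air (2.4% to 5.71% of all probes). Likewise 0 or 1 was at least 2-fold below air (2.37% to 7.96%).

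A further 34 genes known to be induced by glucocorticoids gave a median against air from −0.16 (5% O2 at 6 h) to 0.52 (3000 ppm CO at 2 h), with 0.47 at 2 h after 5% O2. At an unadjusted limma p under 0.05, 6 of 34 were higher and 3 lower for 2 h against 0 h (3.67% of all probes). There were 3 higher and 9 lower for 6 h against 0 h (2.72%), and 3 and 6 for 12 h (5.58%). For 6 h against 2 h there were 1 and 11 (2.63%). Against air, 7 were higher and 1 lower in 1000 ppm CO (11.7%). There were 8 and 1 in 3000 ppm CO (4.37%), and 9 and 0 in 5% O2 (7.31%). Between exposures, 4 were higher and 2 lower in 3000 than in 1000 ppm CO (19.1%). Against 5% O2, 3 were higher and 2 lower in 3000 ppm CO (14.6%), and 1 and 5 in 1000 ppm CO (12.3%). Zfp36, which destabilizes inflammatory mRNAs and is also an immediate early gene, was the only gene of this list that passed the adjusted threshold between times. It fell from its 0 h level, but its spot was well above background on only 6 of the 12 arrays: those at 0 h, air included, and 3000 ppm CO at 2 h and 6 h. Its levels were therefore at least 2.89-fold lower at 2 h, 3.76-fold at 6 h and 2.77-fold at 12 h in 1000 ppm CO, at least 11.3-fold lower at 12 h in 3000 ppm CO, and at least 5.78-fold and 6.03-fold lower at 2 h and 6 h in 5% O2. The limma differences, which take the dim spots at their measured values, were −2.44 ± 0.21 for 2 h (adjusted p = 0.0425), −2.57 ± 0.21 for 6 h (adjusted p = 0.0295) and −3.28 ± 0.24 for 12 h (adjusted p = 0.025). In 7 of 26, 8 of 26 and 10 of 25 alternative settings these calls held, and with normexp, another background correction, the values were −0.77, −0.35 and −1.08; none of the settings turned the direction. When each of the 11 exposed arrays was left out in turn, the 2 h call held in 0 cases, the 6 h call in 1 (without 1000 ppm CO at 0 h) and the 12 h call in 2 (without 1000 ppm CO at 0 h or at 6 h). In the limma comparison of 3000 with 1000 ppm CO, Zfp36 was higher by 1.61 ± 0.18 (adjusted p = 0.00833) and Hif3a, an inhibitory hypoxia-inducible factor subunit, by 0.76 ± 0.13 (adjusted p = 0.0273). These were −0.18 and −0.16 with normexp, and the calls held in 21 and 14 of 25 settings; with slide as a random block or scan session as a factor both ended, the Zfp36 value includes 3 dim spots of 1000 ppm CO and 1 of 3000 ppm CO, and of the 11 omissions of an array the Zfp36 call held in 10, all but that of 3000 ppm CO at 0 h, and the Hif3a call in 4. Dusp1, a phosphatase of MAP kinases that is likewise an early response gene, did not pass and differed by −1.80, −2.70 and −2.89 at 2 h against 0 h. Ddit4, an inhibitor of mTORC1 that hypoxia also induces, differed by −1.10, −1.38 and −1.28 at 6 h against 0 h. Ccn2, a matricellular growth factor, differed by −1.31, −1.25 and −1.54 at 6 h against 2 h. Zfp36 and Dusp1 were highest at 0 h in all 3 exposures. The course of Zbtb16 and Fkbp5, highest at 2 h in each exposure, was shared by 7 of the 34 genes (Klf9, Mt1, Mt2A, Slc2a1, Lyve1, Mertk and Tgm2, looked up after their values were seen), where 4.05% of all tested probes had it.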

How the data were processed

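Striatal RNA of 12 rats, 1 per exposure and time, was hybridised to single-colour Agilent arrays. Per the file headers, Feature Extraction 10.7.3.1 gave the processed signal, an intensity with background subtracted and spatial trends removed, with no scaling between arrays; the raw mean and background signals used as an alternative are intensities too, and the flags for spots above background, outlying or saturated are 0 or 1. The deposited series table holds log2 values of the same arrays, which correlated with log2 of the processed signal at r of at least 0.9999 and whose column medians lay between 0.00 and 0.01; how they were centred is not given in the sources used here.

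Levels are log2 of the processed signal minus the 75th percentile of the array (463.5 to 805.8 units). Outlier spots were not used, repeat spots entered as their mean, and 14 probes lacking a usable value on some array dropped out. Probes well above background on at least 3 arrays were tested, each probe by itself, with limma 3.58.1 (R 4.3.3): exposure and hours as additive factors, 5 residual degrees of freedom, two-sided tests, Benjamini-Hochberg over 32230 probes. The air array is alone in its exposure and was assumed to vary like the others. Differences from air and between times within an exposure carry no test. A bound compares the bright spot with the higher of the dim spot and the array's lowest signal well above background. Python 3.11.15, pandas 2.3.3, numpy 2.4.6 and matplotlib 3.10.9 were used. Symbols were updated through a RefSeq table, and positions are those of the files (rn4); exon and UTR annotation of that build was not used here.

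The members, the lists, the rule for named genes and the alternatives were chosen with earlier results of these data known. All members are named. Of the 2 lists (receptor pathway, other glucocorticoid-induced genes), those named with levels or differences passed a contrast or were at least 2-fold in 1 direction between times in every exposure. Nr3c1, Nr3c2 and Hsd11b1 were added to these. Outside this rule, Hsp90aa1 and Fkbp4 are named as examples, Hsd11b2 for its spread against air and Angptl4 by pattern likeness. The genes of the list highest at 2 h in each exposure are named after their values were seen. For pattern likeness, the 5 genes with the highest Pearson correlation with Zbtb16, Fkbp5 and Sgk1 are named, except 1 for Zbtb16 that is not reported here. The alternatives were other background, scaling, source, filter, probe summary, variance prior, slide, session and position settings, and leaving out arrays. The same alternatives were applied to Zfp36 and Hif3a after seeing the data. The number of arrays limits the precision, and p-values measure the spread of these single rats around the additive model.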

Additional observations from a re-analysis of the deposited data

Results flagged for a closer look

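Some differences between times ran at least 2-fold in opposite directions in a pair of exposures; with 1 rat per exposure and time, the difference between the exposures was not tested. Pdk4 A_42_P736573 was lower at 2 h than at 0 h after 1000 ppm CO (−1.55) and higher after 5% O2 (1.16). Fkbp5 was lower at 6 h than at 0 h after 1000 ppm CO and higher after 5% O2: −1.20 and 1.67 for A_44_P532249, −1.19 and 1.76 for A_44_P519167, and −1.22 and 1.35 for A_43_P18969. Both ends of the Fkbp5 difference use an array with low medium spiny neuron markers. Pdk4 A_44_P231269 was higher at 6 h than at 2 h after 1000 ppm CO (1.48) and lower after 5% O2 (−1.97), and both values involve a spot not well above background. Cdkn1a A_44_P515275 was higher at 6 h than at 2 h after 1000 ppm CO (1.08) and lower after 3000 ppm CO (−1.80).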

How the results depend on the processing

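Of 706 values of 28 named differences over 26 alternative settings, 702 kept their direction and 6 passed the adjusted threshold that the main values missed. The 4 reversed values were Arrdc2 6 h against 0 h (0.077), Zbtb16 A_44_P189428 6 h against 2 h (0.072) and 3000 against 1000 ppm CO (−0.52) with normexp, and the last also with scan session as a factor (−0.53); both probes have low signal, and the cause was not tested. The count of 18 probes that passed was 0 in each comparison and setting that could be fitted, with these exceptions: for 3000 against 1000 ppm CO it was 1 with position as a covariate and 1 without the 12 h arrays, and 0 to 1 on leaving out each array (1 without 1000 or 3000 ppm CO at 12 h); for 1000 ppm CO against 5% O2 it was 0 to 2 on leaving out each array (2 without 1000 ppm CO at 6 h). The shares of all tested probes that passed in these excepted settings are not given here. In the main fit they were 4.46% for 3000 against 1000 ppm CO and 0.369% for 1000 ppm CO against 5% O2. With slide as a fixed factor, contrasts with 1000 ppm CO could not be estimated, since 1 slide holds that exposure alone. Of 198 differences from air, 24 were at least 2-fold above and 15 below; above, there were 56 at 1.5-fold, 6 at 3-fold and 10 against the median of the 12 arrays, and below, 25 at 1.5-fold, 6 at 3-fold and 2 with normexp. Of probes 2-fold in every exposure, normexp left 0 of 2 higher at 2 h than at 0 h, 1 of 3 lower at 6 h than at 0 h and 0 of 2 lower at 6 h than at 2 h, and the deposited values gave 1 in place of 0 higher at 12 h than at 0 h. For Zfp36 and Hif3a, tried after seeing the data, the reversed values were both 3000 against 1000 ppm CO with normexp (−0.18 and −0.16). The labels carry no replicate numbers to pair by. Exposure is a factor of the model, so time differences are adjusted for exposure, and slide was also fitted as a block. The 12 h differences also draw on the 5% O2 arrays, although that exposure has no 12 h sample.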
